A study of Rattus norvegicus with 6 samples.

Results

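The insulin-like growth factor (IGF) ligands, receptors and binding proteins were examined in RNA-seq data of rat neonatal cardiomyocytes. The set comprised 10 genes, chosen by name as the rows called Igf1, Igf2, Igf1r, Igf2r, Igfbp2, Igfbp3, Igfbp4, Igfbp5, Igfbp6 and Igfbp7, and 3 rows without a gene name (unnamed rows, whose identifiers place them outside the annotation) that overlap Igf1, Igf1r or Igfbp3 on the same strand, out of 43035 rows in all. The Sprague-Dawley rats were at postnatal day 1 by the labels, whereas the paper's methods give a range that also includes the next day. The cells were heart muscle cells of these rats, grown in primary culture with serum. By their labels, they were transfected either with a scrambled siRNA (si-NC, 3 libraries) or with an siRNA against DYRK1A (si-DYRK1A, 3 libraries) and collected after 48 h. Every library thus came from wild-type cells that had received an siRNA, and no untransfected cells were compared. Cardiomyocytes had been enriched by differential attachment to plastic, which leaves some other heart cells in the culture. In bulk RNA of this kind, fewer cells of a type and less RNA per cell cannot be told apart.

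Igf1 and Igf2 are secreted growth factors that signal through the receptor tyrosine kinase Igf1r, and in the fetal and neonatal heart they support growth and division of cardiomyocytes. Igf2r, also the receptor for mannose 6-phosphate on lysosomal enzymes, takes up Igf2 for degradation. The binding proteins hold the ligands in the extracellular space, and proteases that cut them release the ligand again.

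Igf2, Igfbp2 and Igfbp5 were higher in the si-DYRK1A libraries, by 38.9%, 35.9% and 29.5%, whereas Igfbp4 and Igfbp6 were lower, with changes of -19.1% and -24.0%. Igfbp7, the binding protein gene with the highest level, was 10.3% higher, a difference near the threshold of the test. Unnamed rows over Igf1 and Igf1r, which hold nearly all counts of these genes, were also higher, while Igf2r did not pass the test. A row was called when its Benjamini-Hochberg adjusted p from the edgeR quasi-likelihood test over 15513 rows was below 0.05. Of the 8 annotated members with enough counts to be tested, 4 were called higher and 2 lower, with a median log2 fold change of 0.17. Over all rows tested, 15.2% were called, 8.03% higher and 7.19% lower, with a median of 0.00. For 6 of the 8 members the values of the 2 groups did not overlap, against 31.5% of all rows tested. The remaining 2 annotated members, Igf1r and Igfbp3, had at most 1 count in any library.

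The promoter sequences of the 5 members whose calls held in at least 17 of 18 alternative analyses are shown first, so that those that rose can be compared with those that fell. They are the 250 bases before the annotated start of each gene in RefSeq on the build GRCr8, written on the strand of the gene, whereas the positions of genes elsewhere in the text are those of Rnor_6.0. All 10 members were matched by symbol, with 11 windows because Igf2 has 2 starts in the table. Capitals mark the letters of any of 10 short motifs on either strand, and no 2 matches overlapped in these windows. General promoter elements were the GC box, searched as GGGCGG, the TATA box, searched as TATAAA, and the CCAAT box, searched as the letters of its name. Sites of transcription factors were the E-box, searched as CACGTG, the FoxO site with the letters GTAAACA, the cell cycle homology region with the letters TTTGAA, the E2F-like site with the letters GGCGGGA, the AP-1 site with the letters TGACTCA, the TEAD site with the letters GGAATG and the core of the xenobiotic response element with the letters GCGTG. Igf2 start 1 lies at chr1:207253981-207254230, Igf2 start 2 at chr1:207250476-207250725 and Igfbp5 at chr9:81914188-81914437, all on the minus strand, and Igfbp2 at chr9:81864561-81864810, Igfbp4 at chr10:84491221-84491470 and Igfbp6 at chr7:135154669-135154918, all on the plus strand.
Igf2 start 1: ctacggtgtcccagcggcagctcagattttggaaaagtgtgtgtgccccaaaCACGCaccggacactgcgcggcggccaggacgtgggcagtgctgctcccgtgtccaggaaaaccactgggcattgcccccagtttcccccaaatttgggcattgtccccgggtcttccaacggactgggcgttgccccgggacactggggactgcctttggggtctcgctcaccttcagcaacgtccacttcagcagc
Igf2 start 2: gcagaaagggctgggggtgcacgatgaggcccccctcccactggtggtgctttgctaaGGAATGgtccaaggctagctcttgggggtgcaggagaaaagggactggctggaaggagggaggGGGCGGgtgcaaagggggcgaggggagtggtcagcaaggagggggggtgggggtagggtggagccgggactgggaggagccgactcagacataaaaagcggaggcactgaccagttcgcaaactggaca
Igfbp2: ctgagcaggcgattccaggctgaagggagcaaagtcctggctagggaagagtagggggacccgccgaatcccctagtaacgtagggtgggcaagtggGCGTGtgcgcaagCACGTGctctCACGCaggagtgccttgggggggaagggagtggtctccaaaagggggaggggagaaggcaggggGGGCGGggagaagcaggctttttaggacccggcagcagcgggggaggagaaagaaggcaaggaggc
Igfbp5: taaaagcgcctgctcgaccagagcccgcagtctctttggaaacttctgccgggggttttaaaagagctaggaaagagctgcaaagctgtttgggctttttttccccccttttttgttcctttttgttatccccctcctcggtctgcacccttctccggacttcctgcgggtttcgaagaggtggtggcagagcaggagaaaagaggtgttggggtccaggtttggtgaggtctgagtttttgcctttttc
Igfbp4: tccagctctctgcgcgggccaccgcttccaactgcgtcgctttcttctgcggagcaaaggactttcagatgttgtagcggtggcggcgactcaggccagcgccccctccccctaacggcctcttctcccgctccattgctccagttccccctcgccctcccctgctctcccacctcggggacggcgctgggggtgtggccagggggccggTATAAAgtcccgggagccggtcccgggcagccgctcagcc
Igfbp6: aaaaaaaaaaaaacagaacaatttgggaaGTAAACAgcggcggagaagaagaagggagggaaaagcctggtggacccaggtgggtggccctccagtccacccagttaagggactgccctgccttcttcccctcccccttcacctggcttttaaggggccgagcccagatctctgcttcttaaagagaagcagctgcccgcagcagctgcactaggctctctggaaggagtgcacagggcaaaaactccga

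Among genes that rose, the GC box was present at Igfbp2 and at the second start of Igf2, but not in the window of Igfbp5, which held none of the 10 motifs. The E-box occurred only in the window of Igfbp2 among these 6. Of those that fell, Igfbp4 had a TATA box at position -40 counted from the start, and Igfbp6 had a FoxO site at position -221. Across all 33469 promoter windows of the same length, 30.5% held the GC box, 12.9% the TATA box, 5.59% the E-box, 3.21% the FoxO site, 12.1% the TEAD site and 25.9% the xenobiotic response core, the motifs that occur in the windows shown. The GC content was 62.4% and 63.6% at the 2 starts of Igf2, 64.0% at Igfbp2, 51.6% at Igfbp5, 68.8% at Igfbp4 and 54.8% at Igfbp6, compared with a median of 51.2% over all windows. No motif occurred in every window of the members that rose, none was shared by both members that fell, and the GC content of the 2 sets overlapped. A match gives the letters in the window only, and no binding was measured here.

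The libraries held 10325074 to 11921772 counts, of which 17.2% to 17.5% fell on unnamed rows. The targeted gene did not show a knockdown in these counts. The annotated row of Dyrk1a held between 0 and 3 counts in each library, too few to test. An unnamed row over Dyrk1a had 77.7 ± 3.22 CPM (counts scaled to a common library size, mean ± SD, n = 3) in si-NC and 82.4 ± 2.70 CPM in si-DYRK1A libraries, with a log2 fold change of 0.08 (95% confidence interval -0.04 to 0.20, edgeR adjusted p = 0.374). The paper reports knockdown of the DYRK1A protein by immunoblot in neonatal cardiomyocytes transfected in the same way. Protein was not measured in these data, and the RNA counts do not show whether it fell in the sequenced cultures. Every difference given here is therefore one between the libraries labelled si-DYRK1A and those labelled si-NC. The division of reads between annotated and unnamed rows also bears on the members. Among 4785 protein-coding genes covered over their whole length by an unnamed row of the same strand, 84.0% stayed under 10 counts in all 6 libraries. The share was 46.2% for the 14871 genes without such an overlap.

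Igf2 (ENSRNOG00000020369, chr1:215828102-215846911, minus strand) is the fetal growth factor of the family and is expressed from the paternal allele in rodents. It gave 242, 234 and 226 CPM in the si-NC libraries and 333, 316 and 326 CPM in the si-DYRK1A libraries, from 2520 to 3791 counts per library. The lowest si-DYRK1A library thus lay above the highest si-NC library. The means were 234 ± 7.60 and 325 ± 8.91 CPM (SD, n = 3), with a log2 fold change of 0.47 (SE 0.0445, 95% confidence interval 0.38 to 0.57, edgeR adjusted p = 1.62e-07). Of the annotated members it had the smallest adjusted p. Mir483, a microRNA gene inside Igf2 on the same strand, has a row of its own, which held 4 counts in 1 library and 0 in the others.

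Igf1, the ligand that growth hormone induces in the liver and that many tissues also make locally, was split between 2 rows. Its annotated row (ENSRNOG00000004517, chr7:28412198-28486609, plus strand) held 52, 47 and 76 counts in si-NC and 67, 66 and 64 counts in si-DYRK1A libraries. The groups overlapped on this row, and it was not called (log2 fold change 0.20, SE 0.198, edgeR adjusted p = 0.561). An unnamed row over the same gene (chr7:28411649-28491828) gave 270.1, 255 and 286 CPM in si-NC and 354, 316 and 322 CPM in si-DYRK1A libraries. On that row every si-DYRK1A library lay above every si-NC library, with a log2 fold change of 0.29 (SE 0.0516, edgeR adjusted p = 0.000487). When both rows were summed, 1.80% of the counts came from the annotated row, and the log2 fold change remained 0.29 (edgeR adjusted p = 0.00056). No other annotated gene on this strand overlapped the unnamed row.

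Igf1r, the tyrosine kinase receptor through which both ligands signal, had 1 count in all 6 libraries together on its annotated row (ENSRNOG00000014187). Its reads lay on an unnamed row (chr1:128923741-129213985, plus strand) with 135, 146 and 137 CPM in si-NC and 159, 157 and 163 CPM in si-DYRK1A libraries. The groups did not overlap, and the log2 fold change was 0.19 (SE 0.0483, edgeR adjusted p = 0.00873). This call depended on single libraries. Without si-NC replicate 1 the edgeR adjusted p was 0.0611, and without si-DYRK1A replicate 3 it was 0.0535.

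Igf2r (ENSRNOG00000014997, chr1:48176106-48264477, plus strand), which clears Igf2, ranked 10 among all rows by its counts. It gave 3622, 3754 and 3454 CPM in the si-NC libraries and 4000.2, 3737 and 3861 CPM in the si-DYRK1A libraries. The second si-DYRK1A library lay below the second si-NC library, so the groups overlapped, and the row was not called (log2 fold change 0.10, SE 0.0409, 95% confidence interval 0.01 to 0.18, edgeR adjusted p = 0.115). It passed with limma-voom (adjusted p = 0.0406) and without si-NC replicate 2 (edgeR adjusted p = 0.0338).

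**Figure D1:**
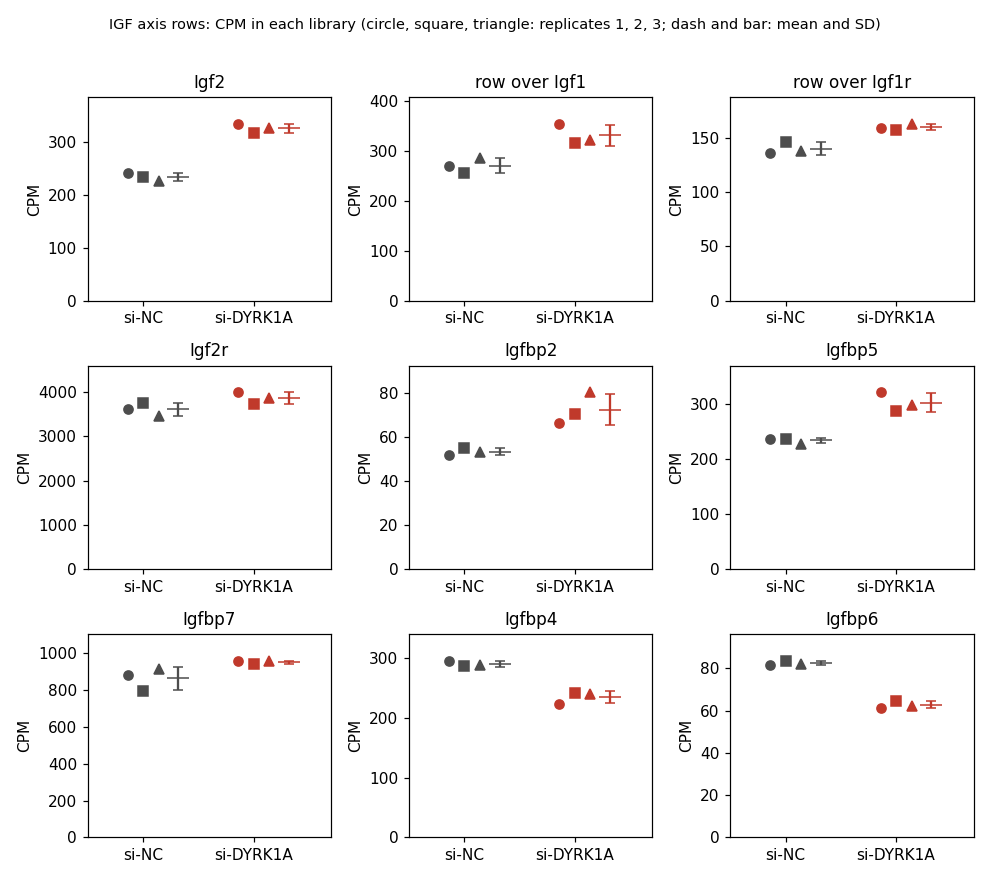
CPM, the counts scaled to a common library size, of 7 annotated members and of the unnamed rows over Igf1 and Igf1r in each library, with si-NC in grey and si-DYRK1A in red, markers for replicates 1, 2 and 3, and dash and bar for the mean and SD. Igf2, Igfbp2, Igfbp5, Igfbp7 and both unnamed rows lie higher in every si-DYRK1A library than in any si-NC library, Igfbp4 and Igfbp6 lie lower, and Igf2r overlaps.

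Among the binding proteins, Igfbp2 (ENSRNOG00000016957, chr9:80118029-80144789, plus strand), one that binds Igf2 more tightly than Igf1, gave 51.8, 55.1 and 53.4 CPM in si-NC and 66.6, 70.7 and 80.6 CPM in si-DYRK1A libraries. Its spread within the si-DYRK1A group was the widest relative to the mean of the binding proteins that rose, at 72.6 ± 7.19 CPM, compared with 53.4 ± 1.64 CPM in si-NC (SD, n = 3). The log2 fold change was 0.44 (SE 0.0714, edgeR adjusted p = 0.000154). Igfbp5 (ENSRNOG00000017206, chr9:80150211-80167033, minus strand), which also binds the extracellular matrix, is the neighbour of Igfbp2. The ends of the 2 genes face each other, 5421 bases apart. Igfbp5 gave 237, 238 and 229 CPM in si-NC and 323, 288 and 299.5 CPM in si-DYRK1A libraries, with no overlap. Its log2 fold change was 0.37 (SE 0.0474, edgeR adjusted p = 9.70e-06).

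Igfbp4 and Igfbp6 moved the other way. Igfbp4 (ENSRNOG00000010635, chr10:86950557-86962578, plus strand), which blocks IGF action until it is cut by Pappa, gave 296, 287 and 288 CPM in si-NC and 223, 241 and 239 CPM in si-DYRK1A libraries. The highest si-DYRK1A library lay well below the lowest si-NC library, and the log2 fold change was -0.31 (SE 0.0450, edgeR adjusted p = 5.48e-05). Igfbp6 (ENSRNOG00000010977, chr7:143749221-143754054, plus strand), which has a strong preference for Igf2, gave 81.8, 83.7 and 81.9 CPM in si-NC and 61.4, 64.6 and 62.1 CPM in si-DYRK1A libraries. The replicates of Igfbp6 lay close together, at 82.5 ± 1.07 and 62.7 ± 1.68 CPM (SD, n = 3), with a log2 fold change of -0.40 (SE 0.0578, edgeR adjusted p = 5.07e-05).

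Igfbp7 (ENSRNOG00000002050, chr14:33010300-33070190, plus strand), a matrix protein that binds IGFs weakly, gave 879, 792 and 914 CPM in si-NC and 956, 941 and 955 CPM in si-DYRK1A libraries. The si-DYRK1A libraries lay close together and above the wider si-NC group, with means of 862 ± 62.9 and 950.5 ± 8.48 CPM (SD, n = 3). The log2 fold change was 0.14 (SE 0.0468, edgeR adjusted p = 0.0441). The call was lost in 11 of 18 alternative analyses, and without si-NC replicate 2 the log2 fold change was 0.08 (edgeR adjusted p = 0.202).

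Igfbp3, the main carrier of IGFs in blood, had 0 counts in every library (ENSRNOG00000061910, chr14:87457647-87465374, minus strand), and so did an unnamed row over the same interval. At this depth 0 counts allow a level of up to 0.251 to 0.288 CPM, depending on the library, for counting error only. Igfbp1, which ends 3861 bases from Igfbp3, held 3 counts in 1 library and 0 in the others. Of 903 protein-coding genes that share both ends with an unnamed row of their strand, 67.8% had 0 counts throughout, against 24.4% of genes with no such overlap, and whether the 0 of Igfbp3 reflects its expression was not tested. In the exact permutation test over libraries, two-sided, each member whose groups did not overlap reached p = 0.1, the smallest value that 3 against 3 libraries can give.

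**Figure D2:**
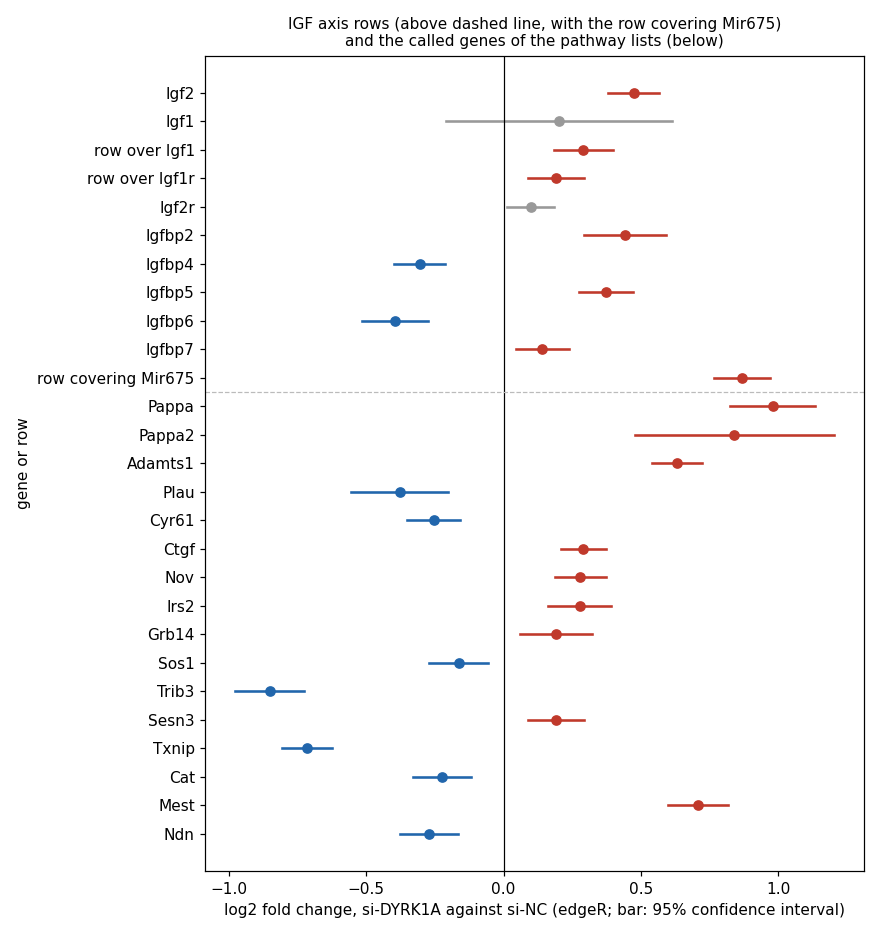
Log2 fold changes of si-DYRK1A against si-NC libraries from edgeR, with 95% confidence intervals as bars, for the IGF axis rows and the row covering Mir675 above the dashed line and the called genes of the pathway lists below it. Red marks rows called higher, blue rows called lower and grey rows not called, which are Igf2r (0.10) and the annotated row of Igf1 (0.20).

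Levels of different genes were compared on the deposited FPKM values, which divide by gene length. In si-NC libraries, Igfbp7 was at 777 ± 55.3 FPKM and Igf2r at 408 ± 17.6 FPKM (SD, n = 3). They were followed by Igfbp4 at 133 ± 1.87 FPKM and Igfbp6 at 76.7 ± 1.22 FPKM. The next levels were close to each other, with Igfbp2 at 41.5, Igf2 at 41.2, Igfbp5 at 39.7 and the unnamed row over Igf1 at 36.9 FPKM, and the libraries of each of these 4 overlapped those of its neighbour in the order. The row over Igf1r was lower, at 10.8 ± 0.475 FPKM. In si-DYRK1A libraries, Igfbp6 at 58.1, Igf2 at 57.1, Igfbp2 at 56.2 and Igfbp5 at 51.2 FPKM formed the overlapping stretch instead. The order of the first 3, Igfbp7 at 854, Igf2r at 436 and Igfbp4 at 107 FPKM, was the same in both groups, and none of these overlapped its neighbour.

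**Figure D3:**
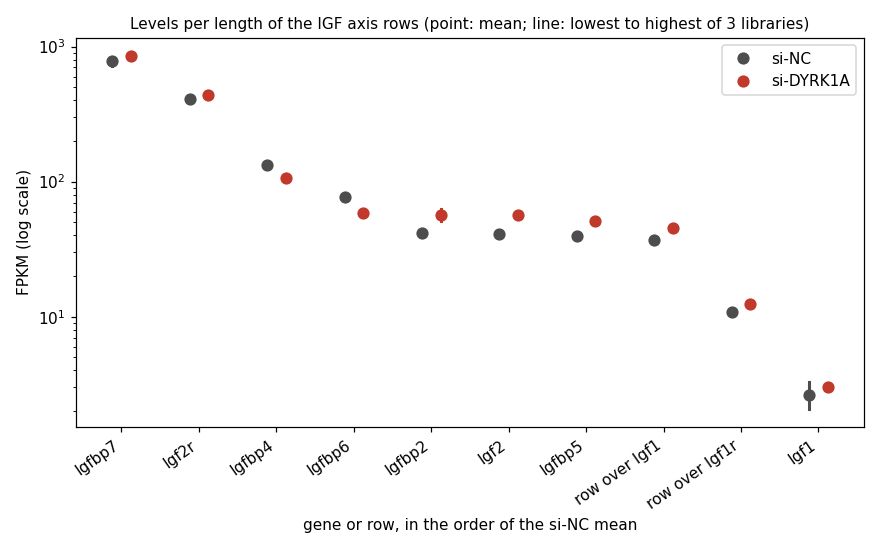
FPKM of the IGF axis rows on a log scale, as the mean (point) and the range of 3 libraries (line), in the order of the si-NC means. Igfbp7 and Igf2r are highest in both groups, whereas Igf2, Igfbp2 and Igfbp5 lie well below Igfbp6 in si-NC and close to it in si-DYRK1A libraries.

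As a share of the summed FPKM of the binding proteins, Igfbp7 took 72.7 ± 1.60% in si-NC and 75.8 ± 0.549% in si-DYRK1A libraries (SD, n = 3). Igfbp4 went from 12.4 ± 0.604% to 9.48 ± 0.394% and Igfbp6 from 7.20 ± 0.472% to 5.16 ± 0.167%. Igfbp2 went from 3.90 ± 0.306% to 4.99 ± 0.455% and Igfbp5 from 3.73 ± 0.261% to 4.55 ± 0.265%. For each of these 5 the libraries of the 2 groups did not overlap, and the shares restate the differences of the single genes. The summed level of all binding proteins was 1067 ± 52.9 FPKM in si-NC and 1127 ± 9.03 FPKM in si-DYRK1A libraries, higher in the latter with no overlap and mostly made up of Igfbp7. Without Igfbp7, the sum was lower in si-DYRK1A libraries, at 290.4 ± 2.43 FPKM in si-NC and 272 ± 7.43 FPKM in si-DYRK1A, again with no overlap.

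Relative to Igf2, the sum without Igfbp7 was 6.85, 7.09 and 7.22 in the si-NC libraries and 4.52, 4.93 and 4.89 in the si-DYRK1A libraries, a ratio of FPKM with means of 7.05 ± 0.188 and 4.78 ± 0.225. The ratio of Igf2r to Igf2 was 9.62, 10.3 and 9.79 in si-NC and 7.70, 7.60 and 7.61 in si-DYRK1A libraries. The ratio of Igfbp5 to Igfbp4 was 0.297, 0.307 and 0.295 in si-NC and 0.535, 0.442 and 0.464 in si-DYRK1A libraries. Igf2 itself was called higher, Igf2r was not called, and Igfbp5 and Igfbp4 were called in opposite directions. In all 3 ratios the groups lay apart, which restates these differences and is no further evidence. These are ratios of mRNA levels, and the proteins were not measured here.

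**Figure D4:**
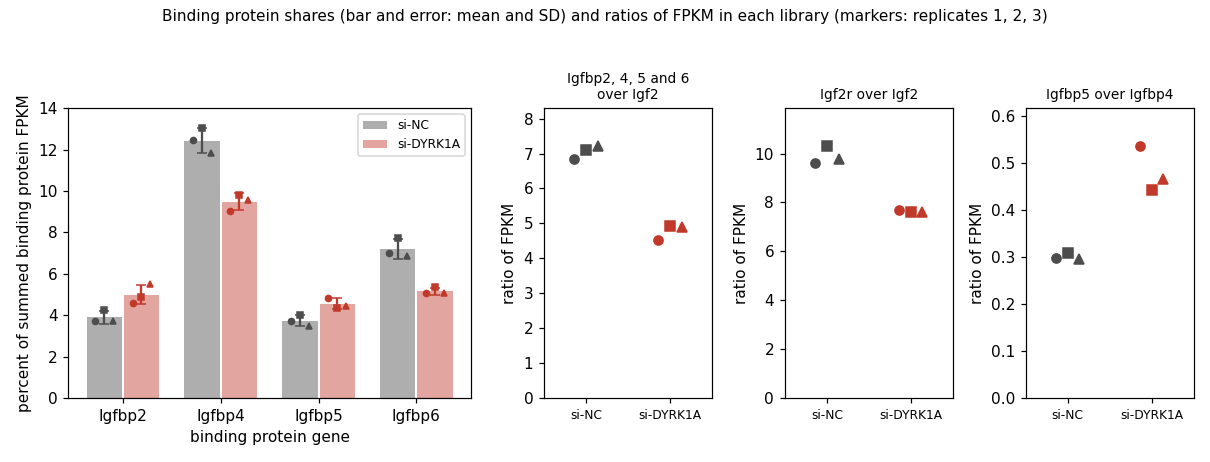
Share of each binding protein in the summed FPKM of the binding proteins (left, bars and error bars for mean and SD, without Igfbp7) and 3 ratios of FPKM in each library. Igfbp4 and Igfbp6 take smaller shares and Igfbp2 and Igfbp5 larger ones in si-DYRK1A libraries, and the sum of Igfbp2, Igfbp4, Igfbp5 and Igfbp6 over Igf2 lies between 4.52 and 4.93 there, compared with 6.85 to 7.22 in si-NC.

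Igf2 lies beside H19, a long noncoding RNA expressed from the opposite parental allele under a shared control region. No row was named H19. An unnamed row on the minus strand (chr1:215744391-215747096), 81005 bases from Igf2, covers Mir675, the microRNA gene that H19 hosts, and it was picked after its values had been seen. It gave 583, 496 and 542 CPM in si-NC and 979, 990.2 and 991 CPM in si-DYRK1A libraries. The groups lay far apart, with a log2 fold change of 0.87 (SE 0.0489, edgeR adjusted p = 4.36e-10), and the call held in all 18 alternatives. Of 19 imprinted genes or neighbours of Igf2 or Igf2r, 4 were tested. Mest, a paternally expressed gene, was higher, with means of 97.1 ± 1.62 and 158.5 ± 9.41 CPM and a log2 fold change of 0.71 (edgeR adjusted p = 6.36e-09), and Ndn, also paternally expressed, was lower, at -0.27 (edgeR adjusted p = 0.00065). The median log2 fold change of the 4 was -0.07, and the share called over all rows tested was 15.2%.

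Of 15 genes for proteases that cut the binding proteins and for their inhibitors, 8 were tested. Of these, 3 were called higher and 1 lower, compared with 8.03% and 7.19% of all rows tested. Their median log2 fold change was 0.13. Pappa, the metalloproteinase that cuts Igfbp4, gave 31.7, 36.6 and 34.2 CPM in si-NC and 65.1, 65.6 and 71.7 CPM in si-DYRK1A libraries. The lowest si-DYRK1A library thus stood far above the highest si-NC library, and Pappa had the largest log2 fold change of the called members and pathway genes, 0.98 (SE 0.0742, edgeR adjusted p = 7.88e-09). Its homologue Pappa2, which cuts Igfbp5, was low, at 5.97 ± 1.48 CPM in si-NC and 10.7 ± 0.408 CPM in si-DYRK1A libraries (SD, n = 3), with a log2 fold change of 0.84 (edgeR adjusted p = 0.00181). On the scale of log2(FPKM + 1) the log2 fold change of Pappa2 was 0.38 and was not called (limma adjusted p = 0.097). Adamts1, a secreted protease of the matrix, had means of 292 ± 12.3 and 452 ± 6.05 CPM and a positive log2 fold change of 0.63 (edgeR adjusted p = 2.27e-09). Plau, the plasminogen activator urokinase, was lower, at 44.0 ± 4.21 and 33.8 ± 2.18 CPM (log2 fold change -0.38, edgeR adjusted p = 0.00336).

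The CCN proteins are matrix proteins with a domain related to the binding proteins. Of 6 genes, 5 were tested, and the median log2 fold change was 0.08. Among all rows tested, 15.2% were called. Ctgf and Nov were called higher, with log2 fold changes of 0.29 (edgeR adjusted p = 2.02e-05) and 0.28 (edgeR adjusted p = 0.000142). Cyr61 was called lower, at -0.25 (edgeR adjusted p = 0.000579). Of 10 other proteins of the IGF axis, among them the insulins, the insulin receptor and the Igf2 mRNA binding proteins, 2 had enough counts to be tested and neither was called. The annotated row of Insr held 8 counts in all and is covered by an unnamed row.

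Within the cell, Igf1r passes its signal through the Irs adaptors to the kinases Pi3k and Akt and through Grb2 and Sos to Ras. Of 43 genes of this route and its brakes, 27 were tested, and 2 were called higher, 2 lower and 23 not at all. Over all rows tested, 15.2% were called, a share near that of this list. The median log2 fold change was -0.05. Irs2, an adaptor of the receptor, was higher at 76.4 ± 2.75 and 92.5 ± 2.31 CPM (log2 fold change 0.28, edgeR adjusted p = 0.00132). Grb14, an adaptor that dampens insulin receptor signalling, was higher at 0.19 (edgeR adjusted p = 0.0411), and Sos1, an activator of Ras, was lower at -0.16 (edgeR adjusted p = 0.0358), and both calls were lost in several alternatives. Trib3, a pseudokinase that binds Akt and is also induced by cell stress, had the largest change of the 4 called genes of this list, with 107, 111 and 103 CPM in si-NC and 55.3, 59.9 and 62.7 CPM in si-DYRK1A libraries and a log2 fold change of -0.85 (edgeR adjusted p = 3.22e-09).

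FoxO transcription factors are excluded from the nucleus when Akt is active, and genes they are known to induce were listed for this reason. Of 15, 11 were tested, 1 was called higher and 2 lower, with a median log2 fold change of 0.01. Over all rows tested, 8.03% were called higher and 7.19% lower. Sesn3, a sestrin, was higher at 0.19 (edgeR adjusted p = 0.00954). Txnip, an inhibitor of thioredoxin that is also strongly controlled by glucose, was lower at 511 ± 6.92 and 311 ± 15.04 CPM (log2 fold change -0.72, edgeR adjusted p = 5.24e-10), and Cat, the peroxide-degrading enzyme catalase, was lower at -0.22 (edgeR adjusted p = 0.00353). The 8 others were not called.

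Markers of the cell types in a neonatal heart culture also differed between the groups. Their calls stand beside 8.03% of all rows tested called higher and 7.19% called lower. The summed FPKM of 10 cardiomyocyte markers was 14873 to 15691 in si-NC and 17728 to 18701 in si-DYRK1A libraries, with 3 of 4 tested called higher, and the annotated rows of Tnni3, Myh6, Myh7 and Myl2 were at 0, each covered by an unnamed row. Actc1 and Nppa, 2 genes of heart muscle, made up nearly all of this sum, at 6659 and 8468 FPKM in si-NC libraries. In si-DYRK1A libraries they were at 7237 and 10924 FPKM, so most of the rise in the sum was that of Nppa. The annotated row of Tnnt2, the tested marker not called, had a log2 fold change of -0.14 and is covered by an unnamed row. Fibroblast markers summed to 4149 to 4987 and 3994 to 4129 FPKM, with 2 of 6 called higher and Pdgfra and Ddr2 at 0. The lower sum came from Col1a1, at means of 2447 and 1890 FPKM, which was not called (edgeR adjusted p = 0.0869). Col3a1 was at 1878 and 1897 FPKM, and the 2 called higher were Lum and Postn. Endothelial markers summed to 47.5 to 51.2 and 40.5 to 43.4 FPKM, with 3 of 7 called lower and none at 0. Epicardial and mesothelial markers summed to 89.7 to 91.6 and 77.1 to 81.6 FPKM, with 4 of 6 called lower and Upk1b and Tbx18 at 0. Macrophage markers summed to 133 to 140.1 and 147 to 170.1 FPKM, with 2 of 7 called higher and Cd68 at 0. Smooth muscle and pericyte markers summed to 1369 to 1470.2 and 1273 to 1339 FPKM, with 1 of 4 called lower and Myh11 and Acta2 at 0. The called gene was Des, which made up most of this sum, at means of 1032 and 924 FPKM. Cnn1, the next in level, was at 369 and 366 FPKM and was not called, so the lower sum mainly restates Des. All of the markers at 0 except Myh11 are covered by an unnamed row of their strand. Their 0 therefore does not show that they were absent, and the sums leave out any reads on such rows. Of all protein-coding genes covered in this way, 59.9% had 0 counts. The part of these marker shifts in the differences of Igf2, Igfbp2, Igfbp4, Igfbp5, Igfbp6, Pappa and the other members was not tested.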

How the data were processed

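RNA-seq was analysed for 3 si-NC and 3 si-DYRK1A libraries of rat neonatal cardiomyocytes, grouped and numbered by their sample labels, which call them biological replicates. Per the paper's methods, the authors mapped reads to Rnor_6.0 with HISAT2. The submitters' processing notes name Bowtie 0.12.2 and the mouse build mm8 instead, and the labels and the methods name different library kits. Which tool counted the reads, on which annotation release and with or without strand, is not given in the sources used here, so reads of a gene and of an antisense row cannot be told apart.

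The authors deposited raw counts per gene and FPKM values, which are counts divided by the gene length listed in bases and scaled by 1 constant per library. CPM values were computed from the counts, with library sizes over the tested rows multiplied by the TMM factors of edgeR. Counts were tested in edgeR 4.0.16 (R 4.3.3) by its quasi-likelihood test (TMM, robust fit, filterByExpr with a minimum count of 10 and a total of 15, two-sided, Benjamini-Hochberg over all rows tested, threshold 0.05). The percent changes given are those of the fitted log2 fold changes. Scripts were tested on simulated data.

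The members and lists were chosen with earlier results of these data known. Named were the members, unnamed rows overlapping them by at least 1 base on the same strand, every called gene of the pathway lists, Dyrk1a, and the 3 genes most like Igf2 (mean log2 CPM of at least 5). Promoters were read from RefSeq on GRCr8. Each library was treated as a sample of its own because the labels call them biological replicates. Replicates of a group differed by more than sampling noise (chi-square per degree of freedom 2.65 to 6.48). That spread does not show whether they came from separate cultures. Alternatives were DESeq2 1.42.0, other normalizations and filters, limma 3.58.1 on voom weights or log2(FPKM + 1) and log2(FPKM + 0.1), the replicate number as a block, rows summed with unnamed rows, and each library left out. They were applied to the row covering Mir675 and to the pathway genes after the data had been seen. Libraries held 10325074 to 11921772 counts. Confidence intervals of log2 fold changes come from edgeR and include the spread between replicates, while the levels that 0 counts allow cover counting error only.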

Additional observations from a re-analysis of the deposited data

How the results depend on the processing

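Igf2, Igfbp4, Igfbp5, Igfbp6 and the row covering Mir675 kept their direction and their call in all 18 alternatives, and the count of members called lower was 2 in each. None of the log2 fold changes recomputed under these alternatives changed sign. The calls of the main test fell to 1199, 1180 and 591 rows with limma on log2(FPKM + 1), on log2(FPKM + 0.1) and on log2(FPKM + 1) without a filter. Under the last of these, 2 members were called higher, 5 genes of the pathway lists were called higher and 3 lower, and 0 unnamed rows over a member were called, with Igfbp2 at an adjusted p of 0.0536 and the row over Igf1 at 0.0918. With a pseudocount of 0.1, 4 genes of the pathway lists were called lower, and in both filtered FPKM fits 1 unnamed row was called. Leaving out each library in turn gave 1614 to 2210 rows called, 3 to 4 members called higher, 1 to 2 unnamed rows, and 7 to 9 pathway genes higher and 6 to 7 lower. Summing with unnamed rows gave 6 members called higher, with Igf1 and Igf1r added. The cause of these shifts was not tested.

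Whether the same replicate numbers pair the samples is not known. The deviations of same-numbered libraries correlated at 0.0578, -0.0261 and -0.0041, and those of differently numbered libraries at -0.0553 to 0.0595. With 3 libraries per group, such values cannot tell whether same-numbered libraries shared a culture or preparation. With the replicate number as a block, 2269 rows were called, with 4 members higher and 2 lower, and of the named genes only Sos1 lost its call (edgeR adjusted p = 0.0618).

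Depth limits what can be said of the annotated rows of Igf1r and Igfbp3, which held 1 count and 0 counts in all and were not tested. Igf1, Igf1r and Igfbp3 also depend on how reads were divided between annotated and unnamed rows. Use of strand was not tested, and the genome of Rnor_6.0 was not used here.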

Other observations

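An unnamed row on the opposite strand overlapped the start of Igf2r (chr1:48120396-48206675, minus strand). In the mouse, a noncoding RNA named Airn runs antisense to Igf2r, and no row of these data carries that name. The row gave 167, 166 and 156 CPM in si-NC and 152, 156 and 151 CPM in si-DYRK1A libraries. The groups overlapped and the row was not called (log2 fold change -0.09, SE 0.0474, edgeR adjusted p = 0.231). A short antisense row at the start of Igfbp7 held 2 to 8 counts per library and was not tested.

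After each group mean had been subtracted, the genes whose log2 CPM followed Igf2 most closely over the 6 libraries were Bicd2 (Pearson r = 0.992), Gnptab (0.984) and Pofut2 (0.981), out of 3608 annotated genes compared. These are descriptions over 6 libraries that share depth and preparation. As the highest of 3608 correlations over so few libraries, they do not show a link to Igf2. Between the groups, Bicd2, Gnptab and Pofut2 had log2 fold changes of -0.05, -0.01 and 0.04, compared with 0.47 for Igf2, so none of the 3 shared its difference.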
